A study of Mus musculus with 12 samples.

Results

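The 31 genes described here carry the synthesis of cholesterol and of fatty acids from acetyl-CoA, together with the regulators that set their transcription. They were listed by their place in these pathways, by a rule that sets no condition on measured values, and all 31 were matched by symbol among the 55487 gene identifiers counted. They comprised 8 early sterol genes (acetyl-CoA to squalene), 10 late sterol genes (squalene to cholesterol), 6 genes of SREBP regulation and sterol transport, and 7 genes of fatty acid synthesis. Their transcripts were counted by RNA sequencing in 4 groups of 3 male mice, each mouse its own library, from crosses of the Auts2-ex7fl/fl line. Auts2 encodes a regulator of brain development, and removal of its exon 7 is aimed at the long isoform. Forebrain at postnatal day 0 (P0) came from homozygous exon 7 knockouts made with Cmv-cre, labelled cmv-cre_auts2-ex7koko, and from wild-type littermates. Hippocampus at postnatal day 14 (P14) came from homozygous knockouts made with Nes-cre, labelled nes-cre_auts2-ex7koko, and from littermates labelled auts2-ex7-fl-het. The knockouts thus lost the exon throughout the body at P0 and in neural progenitors and their progeny at P14, where cells of other lineages, such as microglia, largely keep it. The labels name no Cre for the P14 controls, so these had either both alleles intact or 1 of them deleted. The labels do not say which mice shared a litter.

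Cholesterol does not cross the blood-brain barrier in useful amounts, so the brain makes its own, first in all growing cells and later mostly in glia, where the making of myelin takes most of it. Synthesis runs from acetyl-CoA through mevalonate to squalene and then, after ring closure, through a series of sterol intermediates. The genes of this route are switched on together by the transcription factor SREBP2 (Srebf2), and the fatty acid genes more by SREBP1 (Srebf1). Both factors are held in the endoplasmic reticulum by Scap and the Insig proteins while sterols are plentiful.

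SREBPs act through sites close to the starts of their target genes, so the promoters were read first. RefSeq windows of 250 bases before a transcription start (GRCm38.p6) were at hand for 25 of the 31 genes, in 34 windows. Both strands were searched for TCACNCCAC, a form of the sterol regulatory element that SREBPs bind, for CCAAT, the NF-Y box, and for GGGCGG, the Sp1 box. TCACNCCAC was found in 1 member, Hmgcs1, against 1.053% of all 32851 windows. CCAAT was found in 21 of the 34 windows and in 20 of the 25 genes, against 33.85% of all windows. It was present in 5 of 6 early sterol genes, 9 of 9 late sterol genes, 4 of 5 regulators and 2 of 5 fatty acid genes with a window. GGGCGG was found in 24 windows of 21 genes, against 32.742% of all windows. A match is a description of letters and not evidence of binding. The windows of 4 early sterol genes are printed 5′ to 3′ on the strand of the gene, ending at the base before the start, because they show the range from 0 to 5 CCAAT boxes among genes of 1 role. Capitals mark TCACNCCAC and CCAAT on either strand, the latter as CCAAT or ATTGG. Hmgcs1 lies at chr13:119690101-119690350 (plus strand), Mvk at chr5:114444019-114444268 (plus), Mvd at chr8:122443423-122443672 (minus) and Acat2 at chr17:12960726-12960975 (minus), where the last bases fall in the first exon of Acat2 in GENCODE vM21.
Hmgcs1: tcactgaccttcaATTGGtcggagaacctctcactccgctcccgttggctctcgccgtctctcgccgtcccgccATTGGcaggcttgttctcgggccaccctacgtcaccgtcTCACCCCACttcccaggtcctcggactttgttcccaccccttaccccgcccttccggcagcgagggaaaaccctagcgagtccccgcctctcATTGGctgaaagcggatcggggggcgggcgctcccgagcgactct
Mvk: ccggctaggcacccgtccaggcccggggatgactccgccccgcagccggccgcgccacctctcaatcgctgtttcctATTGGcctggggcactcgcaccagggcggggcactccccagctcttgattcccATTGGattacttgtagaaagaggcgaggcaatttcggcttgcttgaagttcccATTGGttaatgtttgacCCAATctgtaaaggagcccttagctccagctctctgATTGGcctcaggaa
Mvd: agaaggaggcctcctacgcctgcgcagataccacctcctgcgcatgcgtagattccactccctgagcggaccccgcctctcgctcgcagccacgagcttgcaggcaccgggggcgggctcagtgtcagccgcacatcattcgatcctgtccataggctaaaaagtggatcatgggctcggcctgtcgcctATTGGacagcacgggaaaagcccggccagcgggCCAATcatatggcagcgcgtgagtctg
Acat2: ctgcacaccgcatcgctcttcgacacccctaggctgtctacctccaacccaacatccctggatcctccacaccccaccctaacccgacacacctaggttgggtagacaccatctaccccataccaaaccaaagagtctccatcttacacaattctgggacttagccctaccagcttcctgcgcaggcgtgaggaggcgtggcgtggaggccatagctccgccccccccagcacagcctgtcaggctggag
Hmgcs1 held the sterol element 137 bases before its RefSeq start and 3 CCAAT boxes. GENCODE vM21 places the start of Hmgcs1 further downstream, at chr13:119690379. Mvk held 5 CCAAT boxes, the most of any member, Mvd held 2, and Acat2 held none.

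Total counts per library lay between 11247150 and 23340621, and the 31 genes took between 0.41% and 0.5017% of them. Every member passed the filter on low counts in every comparison. The lowest was Fdps, with 26 to 107 counts per library. Fdps shares 26.71% of its exon bases with Gm43738, which had 0 counts, so its values are uncertain. The next lowest count of any member was 79 (Ebp). Exons of 12 members overlapped those of another gene, and the counts used here do not separate strands. After Fdps, the overlaps of over 10% of exon bases were 18.31% for Fdft1 (with Ctsb), 13.23% for Scap (with 5830462I19Rik), 12.12% for Hmgcs1 (with the antisense gene Gm48342) and 12.08% for Tm7sf2 (with Vps51). Scd1 and Scd2 are similar neighbours, and how reads that match both were counted is not given in the sources used here. Replicate 3 of each P0 group belongs to a separate series of library numbers. Auts2, the targeted gene, stood at 165, 182 and 161 CPM (counts scaled to library size) in the P0 knockouts and 160.4, 136 and 155 CPM in the wild types. At P14 it stood at 93.0, 77.5 and 75.2 CPM in the knockouts and 97.5, 98.0 and 110.3 CPM in the controls. These counts add up all isoforms and do not measure the long one.

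Levels were compared between genes as RPKM, which scales reads to exon length and library size. Scd2, the main brain stearoyl-CoA desaturase, which puts the double bond into oleic acid, had the highest RPKM of the 31 in every group. It stood at 174 ± 0.323 RPKM in P0 wild types and 289.9 ± 13.8 RPKM in P14 controls (SD, n = 3). Hmgcs1, which makes HMG-CoA, was second, at 131 ± 8.99 and 101 ± 4.95 RPKM. At P0 Acat2, the cytosolic thiolase that starts the route, was the third (60.3 ± 4.21 RPKM), followed by Fasn (51.6 ± 1.12), Acly (43.5 ± 1.82) and Sqle (40.6 ± 0.243). At P14 the third was Scd1 (36.8 ± 4.55 RPKM), followed by Srebf2 (34.0 ± 2.39), Fasn (31.3 ± 4.77) and Me1 (30.8 ± 0.696). Among the 30 pairs of neighbours in this order, means differed by more than their summed SDs in 12 pairs in P0 wild types and 7 pairs in each other group, so most ranks below the second were not separate at P14. The median coefficient of variation of the 31 genes was 7.75% in P0 wild types, 11.2% in P0 knockouts, 5.72% in P14 controls and 9.29% in P14 knockouts.

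The P0 comparison asked what these genes did in the forebrain when exon 7 was lost from the whole body. Of the 31 genes, 1 was called at an edgeR quasi-likelihood Benjamini-Hochberg adjusted p under 0.05. It was Acaca, which was lower in the knockouts, and no member was called higher. Over all 16176 genes tested, 0.909% were called, 0.717% lower. Without regard to the test, 11 members were higher and 20 lower in the knockouts, with a median log2 fold change of -0.04, beside 0.00 for all genes. An unadjusted p under 0.05 was reached by 6 members, all lower, against 16.1% of all genes. In 8 members every knockout library lay below every wild-type library, against 11.1% of all genes, and in 0 members above, against 10.7%. The summed CPM of the 31 genes overlapped between the groups, with 4608, 4213 and 4488 in the knockouts and 4517, 4591 and 4666 in the wild types.

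**Figure D1:**
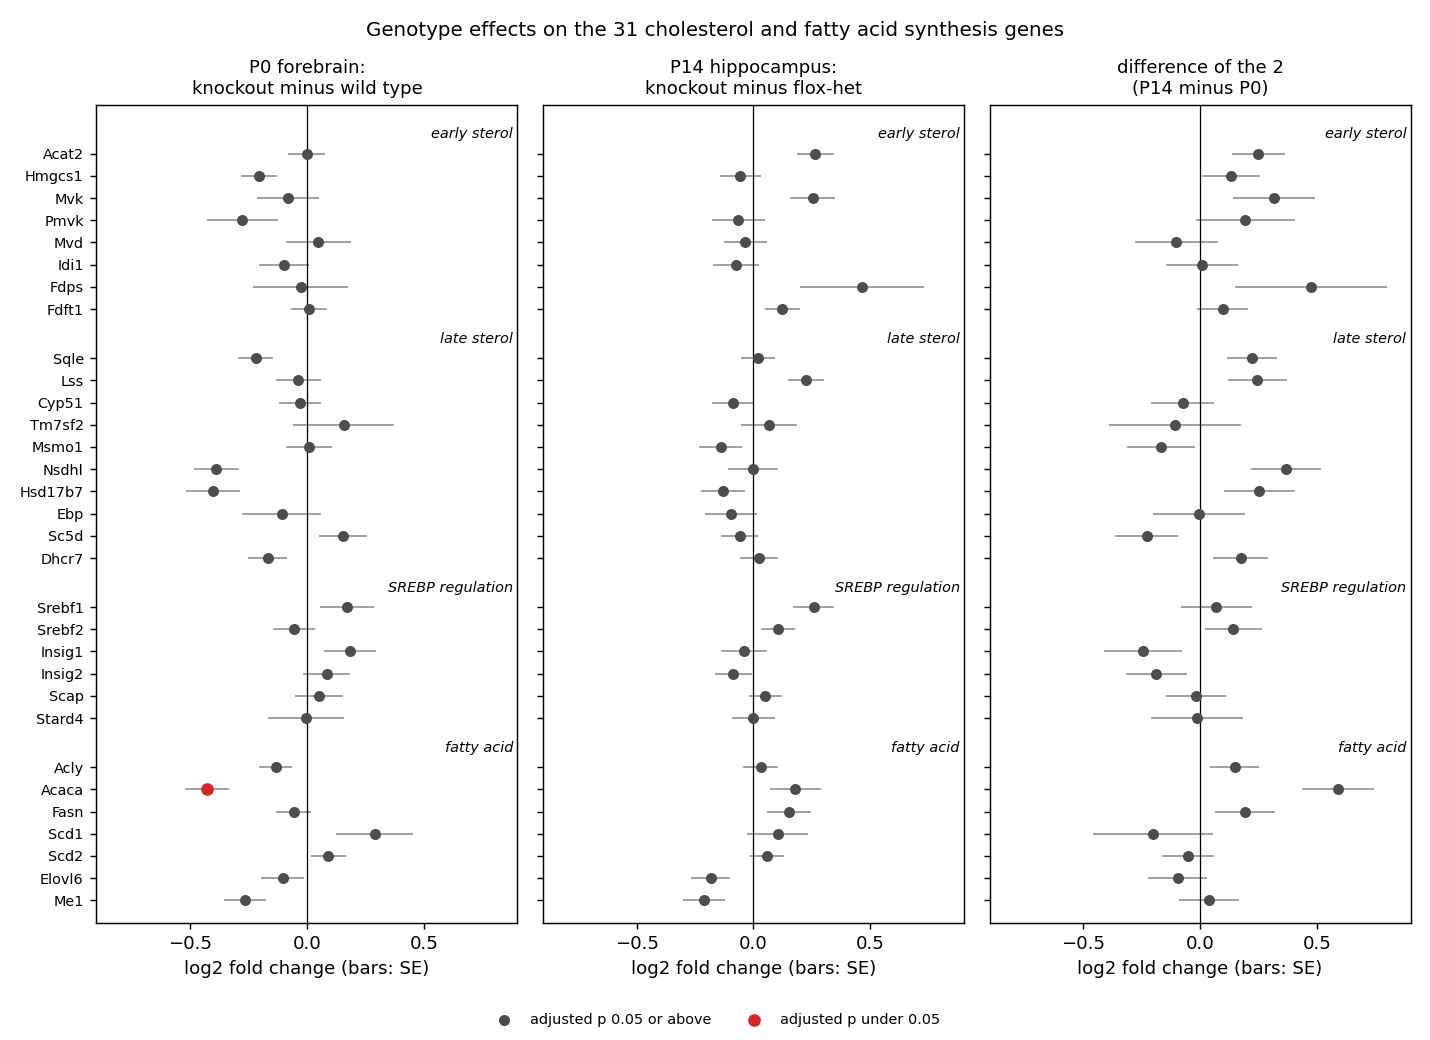
Log2 fold change (x axis) of each of the 31 genes in the P0 forebrain, in the P14 hippocampus and as the difference between these contexts. Points are edgeR estimates, bars are standard errors, and red marks an adjusted p under 0.05, which is reached by Acaca at P0 only (-0.43).

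Acaca (ENSMUSG00000020532, chromosome 11 from 84129672 to 84401651, plus strand, GRCm38) encodes acetyl-CoA carboxylase, which makes malonyl-CoA and so commits carbon to fatty acids. Its level was 147, 143 and 129 CPM in the P0 knockouts and 209, 191 and 162 CPM in the wild types. All 3 knockouts lay below all 3 wild types. Acaca fell by 0.43 on the log2 scale (SE 0.09, edgeR adjusted p 0.0491), to 0.743 of the wild-type level. This p lay just under the threshold, and the call was kept in 2 of 6 leave-one-out fits, those without replicate 3 of the knockouts (-0.37) or of the wild types (-0.52). Those 2 fits called 775 and 249 genes in all. The 4 fits that lost the call of Acaca called only 1 to 15 genes in all. The call of Acaca was also lost in 5 of 10 other settings, with adjusted p up to 0.0766 and log2 fold changes from -0.43 to -0.42. The other 5 kept it, among them the library series as a term (edgeR adjusted p 0.00875) and DESeq2 (adjusted p 0.00525). Of these 5, 1 was the main fit read at a threshold of 0.1, which could not lose the call.

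The next smallest p values belonged to Nsdhl and Hsd17b7, neighbouring steps that remove methyl groups from the sterol ring and reduce the ketone left behind. Nsdhl stood at 39.0, 34.65 and 39.9 CPM in the knockouts and 53.5, 49.1 and 45.7 CPM in the wild types. Its log2 fold change was -0.39 (SE 0.10, edgeR adjusted p 0.0709). Hsd17b7 stood at 30.2, 22.3 and 25.05 CPM in the knockouts and 34.1, 32.3 and 35.55 CPM in the wild types, a log2 fold change of -0.40 (SE 0.11, edgeR adjusted p 0.104). The groups did not overlap for either gene, and neither passed the threshold. Nsdhl passed with the library series as a term (-0.39, edgeR adjusted p 0.0417), with DESeq2 (-0.38, adjusted p 0.0332), without a filter on low counts (-0.38), in the first library series alone (-0.48) and without knockout replicate 3 (-0.42). Hsd17b7 passed without a filter (-0.40).

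The rest of the sterol route gave smaller values. Sqle, the squalene epoxidase that opens the late route, stood at 205, 175 and 202 CPM in the knockouts and 223, 226 and 225.5 CPM in the wild types. Hmgcs1, the gene with the sterol element in its printed window, stood at 504, 502 and 569 CPM in the knockouts and 580.1, 576.5 and 649.8 CPM in the wild types. In both genes the knockout libraries were all below the wild-type ones, with log2 fold changes of -0.22 (SE 0.08) and -0.20 (SE 0.08) and edgeR adjusted p of 0.179 and 0.218. Dhcr7, the last reductase of one branch, also did not overlap (-0.17, SE 0.08, edgeR adjusted p 0.355). The other early members lay between -0.28 for Pmvk (phosphomevalonate kinase, SE 0.15) and 0.05 for Mvd (mevalonate diphosphate decarboxylase, SE 0.14). The other late members lay between -0.11 for Ebp, the sterol isomerase, and 0.16 for Tm7sf2, a sterol reductase. Acat2 (-0.00, SE 0.08) and Fdft1, the squalene synthase (0.01, SE 0.08), had among the smallest differences.

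The regulators overlapped between the P0 groups. Srebf2 stood at 229, 218 and 269 CPM in the knockouts and 236, 235 and 269.9 CPM in the wild types (log2 fold change -0.06, SE 0.09). Srebf1 stood at 45.65, 38.0 and 47.4 CPM in the knockouts and 36.3, 44.7 and 35.3 CPM in the wild types (0.17, SE 0.11). Insig1, which retains SREBPs and is itself a target of them, stood at 108, 82.0 and 84.9 CPM against 70.7, 84.9 and 85.2 CPM (0.19, SE 0.11). In Insig1, 1 knockout library stood above all others. Insig2, Scap and the sterol carrier Stard4 lay between -0.00 and 0.08. None of the 6 regulators had an unadjusted p under 0.05.

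Apart from Acaca, the fatty acid genes did not pass the threshold at P0. Fasn, the fatty acid synthase, stood at 524, 510.5 and 599 CPM in the knockouts and 566, 552 and 576 CPM in the wild types (-0.06, SE 0.08). Scd2 stood at 1103, 1015 and 937 CPM against 950.5, 953 and 954 CPM (0.09, SE 0.08). The wild-type libraries of Scd2 were nearly equal, and the knockouts lay on both sides of them. Me1, the malic enzyme that supplies NADPH, and Acly, which makes cytosolic acetyl-CoA from citrate, had all knockout libraries below all wild types, with log2 fold changes of -0.27 (SE 0.09) and -0.13 (SE 0.07). Their edgeR adjusted p were 0.160 and 0.382. Scd1 (0.29, SE 0.17) and the elongase Elovl6 (-0.10, SE 0.09) overlapped.

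Markers of several cell types moved with genotype at P0. Of 12 astrocyte markers, 10 were lower in the knockouts and 2 of them called (Aqp4 and Slc4a4), with a summed level of 766 to 773 CPM against 827 to 1047 CPM. All 10 oligodendrocyte precursor markers were lower, with 0 called by edgeR and 6 at an unadjusted p under 0.05, at 717 to 819 against 914 to 1052 CPM. Of 10 microglia markers, 9 were lower, 1 of them called (P2ry12), at 89.2 to 105.5 against 103 to 127 CPM. All 8 dentate granule markers tested were lower, 1 of them called (Calb1), at 143.5 to 159 against 183 to 212 CPM. All 8 markers of meninges and fibroblasts were lower, with 0 called and 2 at an unadjusted p under 0.05. The 8 forebrain markers were all higher, 1 of them called (Lhx2), and the 5 erythroid markers tested were all higher, with 0 called and 0 at an unadjusted p under 0.05. Other lists went both ways. Of 9 CA pyramidal markers tested, 4 were higher and 5 lower, with 1 called lower. Of 12 myelin markers tested, 3 were higher and 9 lower, with 0 called. Endothelial markers (5 higher, 5 lower), neural progenitor markers (6 and 5) and choroid plexus markers (6 and 2) also had 0 called. The myelin genes Mobp and Opalin were near 0 counts in P0 libraries. In such bulk tissue, fewer cells of a type and less RNA per cell cannot be told apart, and the part of these shifts in the values of Acaca and the other members was not tested. Within the 4 libraries of the first number series, 9 members were called (2 higher, 7 lower, among 2107 of 16271 genes called in all), and Acaca stood at -0.46.

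The P14 comparison asked the same of the hippocampus after loss of the exon from neural cells. None of the 31 members was called by edgeR, against 1.99% of 17208 genes tested, and DESeq2 also called 0. An unadjusted p under 0.05 was reached by 6 members, 4 higher and 2 lower, against 15.2% of all genes. In 5 members every knockout library lay above every control library, against 9.43% of all genes, and in 0 members below, against 10.6%. There were 16 members with a higher and 15 with a lower mean, and the median log2 fold change was 0.02, beside -0.01 for all genes. The summed CPM of the members was 4381, 4700 and 4973 in the knockouts and 4492, 4681 and 4645 in the controls.

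Acat2, the first enzyme of the route, had the smallest p at P14. It stood at 62.8, 63.8 and 71.35 CPM in the knockouts and 57.3, 54.6 and 54.0 CPM in the controls, with no overlap (log2 fold change 0.27, SE 0.08, edgeR adjusted p 0.10). Srebf1 stood at 47.2, 51.4 and 42.6 CPM in the knockouts and 42.2, 39.9 and 37.2 CPM in the controls (0.26, SE 0.09, edgeR adjusted p 0.164). Lss, the lanosterol synthase that closes the rings, stood at 60.8, 65.0 and 59.8 CPM against 50.7, 53.5 and 55.9 CPM (0.22, SE 0.08, edgeR adjusted p 0.170). The groups of Srebf1 and Lss came close without overlapping. Mvk, the mevalonate kinase (0.25, SE 0.10), and Fdft1 (0.12, SE 0.07) did not overlap either. Below 0 with an unadjusted p under 0.05 were Me1 (-0.21, SE 0.09) and Elovl6 (-0.18, SE 0.08), whose libraries overlapped.

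Other members stayed close to the controls. Hmgcs1 stood at 393, 426 and 504 CPM in the P14 knockouts and 469, 480.1 and 436.5 CPM in the controls (-0.06, SE 0.09). Sqle stood at 136, 131 and 145.5 CPM against 145, 133 and 132 CPM (0.02, SE 0.07). Cyp51, the lanosterol demethylase, stood at 105, 105.5 and 129 CPM against 119, 130.2 and 114 CPM (-0.09, SE 0.09). Knockout replicate 3 was the highest of its group in each of these 3 genes. Srebf2 stood at 251, 263 and 268 CPM in the knockouts and 241, 229 and 263 CPM in the controls (0.10, SE 0.07), and Insig1 at 72.7, 67.9 and 62.1 against 78.3, 73.4 and 58.8 CPM (-0.04, SE 0.10). Fasn stood at 385, 370.2 and 376.5 CPM against 303, 322 and 401.5 CPM (0.15, SE 0.09). Scd2 stood at 1504, 1690 and 1712 CPM against 1502, 1650 and 1600 CPM (0.06, SE 0.07). The Fasn controls spanned the knockouts because control replicate 3 stood above all 3 of them. Without control replicate 3, 4 of 31 members passed the threshold, with Acat2 (0.25), Lss (0.26) and Fasn (0.29) higher and Msmo1 (-0.23) lower. In that fit 1808 of 17491 genes were called, against 342 with all 6 libraries. Acaca, lower in the P0 knockouts, stood at 116, 96.3 and 126 CPM in the P14 knockouts and 94.6, 92.9 and 114 CPM in the controls (0.18, SE 0.11). Nsdhl (-0.00, SE 0.11) and Hsd17b7 (-0.13, SE 0.09) overlapped between the P14 groups. Fdps had the highest estimate (0.46) with the widest error (SE 0.26).

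At P14 the cell markers that moved most were those of dentate granule neurons. All 10 were lower in the knockouts, 8 of them called, at 419.5 to 452 CPM against 630.2 to 693 CPM in sum. All 14 myelin markers were lower, with 0 called by edgeR and 1 at an unadjusted p under 0.05, at 3293 to 6684 CPM against 4742 to 7074 CPM, and these ranges overlapped. All 10 endothelial markers were lower, with 0 called and 4 at an unadjusted p under 0.05, at 236 to 248.5 CPM against 276 to 300.1 CPM. All 6 erythroid markers were lower, with 0 called and 1 at an unadjusted p under 0.05. Other lists went both ways. Of 10 CA pyramidal markers, 3 were higher and 7 lower, with 1 called higher and 2 called lower. Of 8 forebrain markers, 4 were higher and 4 lower, with 1 called higher. Astrocyte, oligodendrocyte precursor, microglia, neural progenitor, choroid plexus and meninges markers also went both ways, with 0 called. The part of all these markers in the values of the members was not tested. Choroid plexus markers summed to 154 CPM in control replicate 1 and 979 and 2577 CPM in the other controls.

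**Figure D2:**
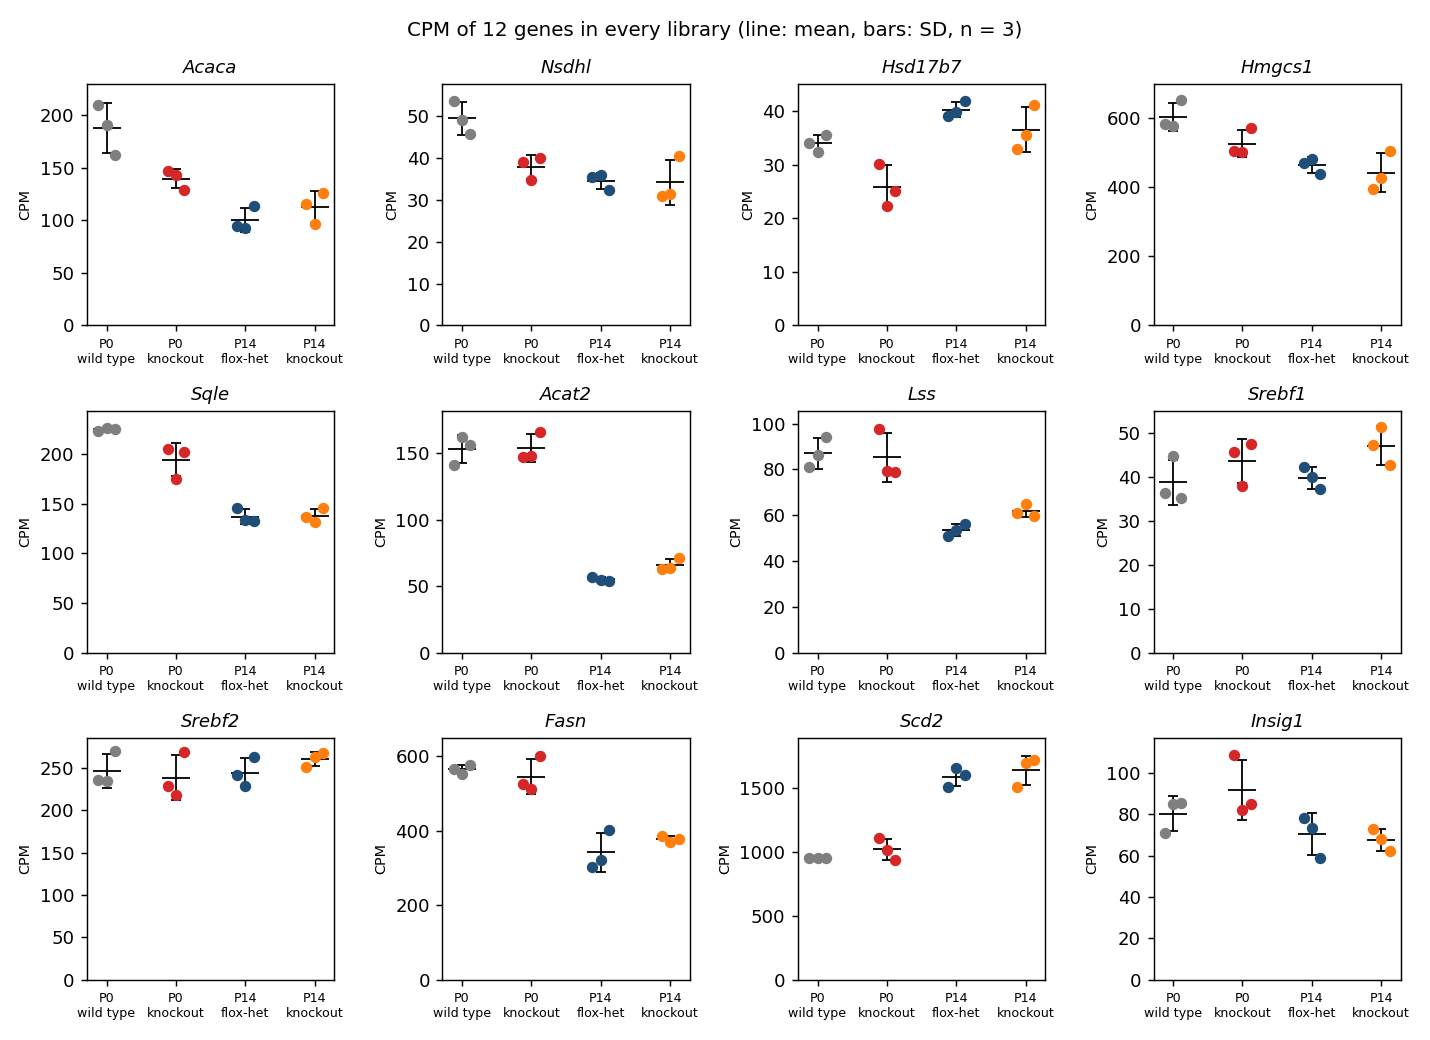
CPM (y axis, linear from 0) of 12 of the genes in each of the 12 libraries, by group. Points are libraries, horizontal lines are means and bars are SDs (n = 3), and the Acaca, Nsdhl, Hsd17b7, Hmgcs1 and Sqle points of the P0 knockouts lie below those of the P0 wild types.

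Whether the knockout effect differed between the contexts was tested as the interaction term of 1 fit to the 12 libraries. None of the 31 members passed, against 1.79% of 18189 genes. An unadjusted p under 0.05 was reached by 3 members, against 15.3% of all genes, all with the P14 effect above the P0 effect. Acaca came closest, with a difference of log2 fold changes of 0.59 (SE 0.15, edgeR adjusted p 0.0528). Acaca passed with DESeq2 (0.61, adjusted p 0.0134), and with edgeR at a minimum of 10 counts per library (0.60, adjusted p 0.0454) or without a filter (0.56, adjusted p 0.0007375). It also passed without P14 knockout replicate 2 (0.69), P14 control replicate 3 (0.69) or P0 wild-type replicate 3 (0.71). Nsdhl followed at 0.37 (SE 0.15) and Acat2 at 0.25 (SE 0.11), with edgeR adjusted p of 0.242 and 0.296. The median over the members was 0.07, beside -0.01 for all genes, and 18 members lay above 0 and 13 below.

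Between the contexts the pathway differed far more than between genotypes. P14 control hippocampus was compared with P0 wild-type forebrain, and tissue, age, control genotype and library series change together here, so their shares cannot be told apart. Of the 31 members, 22 were called, 8 higher and 14 lower at P14, beside 64.0% of all genes, 32.3% higher and 31.7% lower. The median log2 difference was -0.20, beside 0.00 for all genes. The share of members called was near the background, so the directions are given by role.

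All 8 early sterol genes were lower at P14 and 7 of them were called, with a median of -0.52. Fdft1 went from 172, 177.5 and 163.5 CPM in P0 wild types to 94.7, 93.4 and 84.8 CPM in P14 controls (-0.91, SE 0.08, edgeR adjusted p 9.16e-10). Acat2 went from 142, 162 and 157 CPM to 57.3, 54.6 and 54.0 CPM (-1.47, SE 0.08, edgeR adjusted p 4.61e-13). In all 8 genes every P14 control library lay below every P0 wild-type library, against 33.7% of all genes. Mvk (-0.60), Pmvk (-0.44), Hmgcs1 (-0.38) and Mvd (-0.30) fell as well, and so did the uncertain Fdps (-1.70). The isomerase Idi1 missed the threshold (-0.24, edgeR adjusted p 0.0574). Mvd and Pmvk were the least firm, with calls lost in 7 and 2 of 12 leave-one-out fits.

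The late sterol genes divided. Sqle fell from 223, 226 and 225.5 CPM to 145, 133 and 132 CPM (-0.72, SE 0.08, edgeR adjusted p 3.58e-08). Lss (-0.71), Cyp51 (-0.52) and Nsdhl (-0.52) also fell. Ebp, which acts downstream of them, rose (1.05, SE 0.14, edgeR adjusted p 6.90e-07), from 7.81, 9.64 and 8.69 CPM to 17.7, 19.6 and 16.9 CPM. Sc5d, a sterol desaturase (0.58, SE 0.10), and Msmo1, the methylsterol oxidase (0.38, SE 0.10), rose too. Hsd17b7 (0.24), Tm7sf2 (0.15) and Dhcr7 (-0.12) did not pass the threshold.

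Of the 6 regulators 1 was called. Insig2 rose by 0.75 on the log2 scale (SE 0.09, edgeR adjusted p 2.87e-07), from 31.3, 25.8 and 26.2 CPM to 47.3, 47.4 and 45.1 CPM. Srebf2 (-0.01, SE 0.09) and Srebf1 (0.04, SE 0.11) overlapped between the contexts and did not pass the threshold. Scap (0.07), Stard4 (0.23) and Insig1 (-0.20) did not pass either.

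All 7 fatty acid genes were called, in opposite directions. The enzymes that build the chain from citrate fell: Acly by 0.52, Acaca by 0.90 and Fasn by 0.72 on the log2 scale (SE 0.08, 0.11 and 0.09). Acaca went from 209, 191 and 162 CPM to 94.6, 92.9 and 114 CPM, and Fasn from 566, 552 and 576 CPM to 303, 322 and 401.5 CPM. The genes that modify the chain or supply reducing power rose: Scd1 by 2.16, Scd2 by 0.73, Elovl6 by 0.47 and Me1 by 0.78 (SE 0.19, 0.08, 0.09 and 0.09). Scd1 went from 35.2, 43.0 and 42.1 CPM to 159, 203 and 178 CPM, and Scd2 from 950.5, 953 and 954 CPM to 1502, 1650 and 1600 CPM. The contexts did not overlap for any of the 7, with 4 genes above, against 34.0% of all genes, and 3 below.

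**Figure D3:**
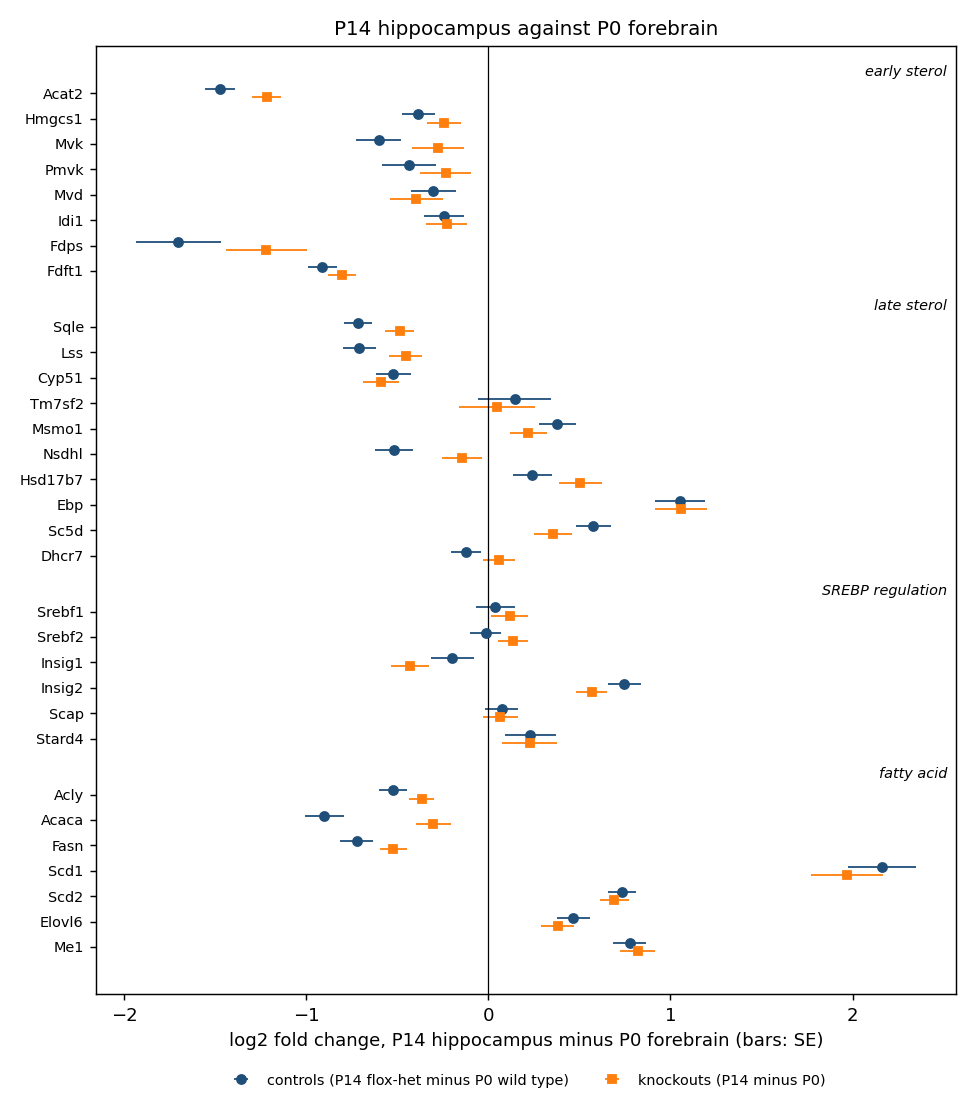
Log2 difference between P14 hippocampus and P0 forebrain (x axis) for each gene, in controls (circles) and in knockouts (squares), with standard errors. The early sterol genes lie left of 0 in both sets, and the fatty acid genes lie on both sides, from Acaca (-0.90 in controls) to Scd1 (2.16).

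The knockouts gave a second set of libraries for the step from P0 forebrain to P14 hippocampus, with no mouse in common among the means compared. Among them the Cre line also changes with the context, from Cmv-cre at P0 to Nes-cre at P14. Its share cannot be told apart from those of tissue, age and library series. In the 6 knockout libraries 20 members were called, beside 66.5% of 17110 genes tested. Of these, 18 were also called in the controls with the same sign, and 29 of 31 members had the same sign in both. The early sterol genes were again all lower, 5 of them called, and all 7 fatty acid genes were called in the same directions. Acat2 stood at -1.22 (SE 0.08), Sqle at -0.49 (SE 0.08), Scd2 at 0.69 (SE 0.08) and Scd1 at 1.97 (SE 0.20). The calls of Mvk (-0.28), Pmvk (-0.23), Nsdhl (-0.14) and Msmo1 (0.22) were lost, while Insig1 (-0.43) and Hsd17b7 (0.51) passed here and not in the controls (-0.20 and 0.24). For Acaca the difference was -0.30 (SE 0.10) in knockouts and -0.90 in controls, the difference that the interaction tested.

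The neighbouring steps of lipid metabolism were followed in 51 further genes. Not all of them passed the filter on low counts. At P0, 1 of those tested was called, against 0.909% of all genes tested. It was Nceh1, a neutral cholesterol ester hydrolase (-0.50, SE 0.11, edgeR adjusted p 0.0491). This p lay just under the threshold, and Nceh1 was not followed in the other settings. Its level was 21.5, 20.9 and 22.9 CPM in the knockouts and 32.1, 33.6 and 26.8 CPM in the wild types. At P14, 1 of those tested was called, against 1.99% of all genes tested. This was Lcat, which esterifies cholesterol on lipoproteins (-0.67, SE 0.10, edgeR adjusted p 0.00341). Lcat stood at 17.7, 21.4 and 22.4 CPM in the knockouts and 34.1, 34.0 and 30.4 CPM in the controls. In both genes all knockouts lay below all controls. None of the further genes passed in the interaction test, against 1.79% of all genes.

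Between the contexts, genes of sterol export, storage and turnover went the other way from the early sterol genes. Of 11 tested, 10 rose and none fell, with a median of 1.28, among them Apoe, the main lipoprotein of the brain (2.26), and Cyp46a1, which hydroxylates cholesterol for export from neurons (1.92). Of the 6 other sterol synthesis genes tested, 1 rose and 4 fell. Of 12 genes of uptake and SREBP processing, 2 rose and 6 fell. Of 20 genes of fatty acid elongation, desaturation and activation, 14 rose and 2 fell (median 0.66). Glial markers rose over the same step, with 14 of 14 myelin markers (median 4.08) and 11 of 12 astrocyte markers (median 2.37) called higher. Over all genes, 32.3% were called higher. Other lists rose too, with 10 of 10 dentate granule (median 3.36), 8 of 10 CA pyramidal (1.63) and 8 of 10 endothelial markers (0.60) called higher. Of 11 neural progenitor markers, 8 were called lower (median -1.16), as were 4 of 8 forebrain markers. Myelin markers summed to 161 to 170.0 CPM in P0 wild types and 4742 to 7074 CPM in P14 controls, and astrocyte markers to 827 to 1047 and 7639 to 7892 CPM. The part of any of these cell types in the levels of the 31 genes was not tested.

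**Figure D4:**
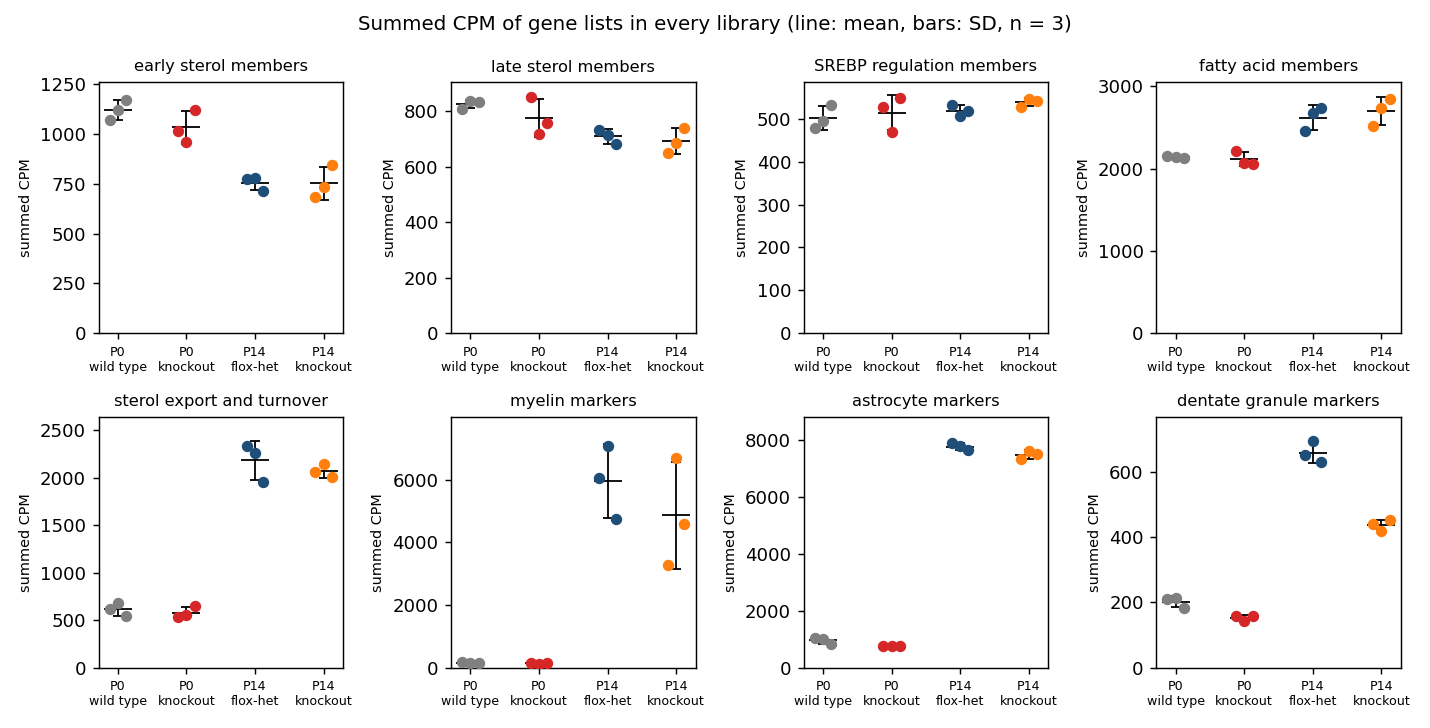
Summed CPM (y axis, linear from 0) of the 4 roles among the 31 genes, of sterol export and turnover genes, and of 3 marker lists, in every library. Lines are means and bars are SDs (n = 3), and the early sterol sum goes from 1072 to 1171 CPM in P0 wild types to 715 to 777 CPM in P14 controls while the export and turnover sum goes from 548 to 679 CPM to 1955 to 2339 CPM.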

How the data were processed

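RNA was sequenced from 12 mice in 4 groups of 3, as read pairs of 150 bases. The deposited values are raw counts, with 1 unstranded number and 1 for each strand per Ensembl gene and library. They were made by the authors with STAR 2.7.5a on GRCm38, per the submitters' processing notes and the file names. The handling of reads that match more than 1 place is not given in the sources used here. The notes also list edgeR 3.12, with no stated role. The unstranded counts were used, since each strand column held close to equal shares. Symbols, exon lengths and coordinates came from GENCODE vM21 (GRCm38), and promoter windows from RefSeq.

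The P0 and the P14 libraries were tested separately, 6 at a time, in edgeR 4.0.16 (R 4.3.3) with filterByExpr, TMM, estimateDisp, robust glmQLFit and glmQLFTest, and Benjamini-Hochberg adjustment over all genes tested with a threshold of 0.05. The interaction and the contrast between contexts came from 1 fit to all 12 libraries. CPM used TMM library sizes, RPKM used the union of exons, and the SE was derived from the fold change and its F statistic. Replicates differed by more than sampling noise (chi-square per degree of freedom from 2.93 to 17.49), so each library counted once. The tests were tested on simulated data. The changes planted there were larger than the genotype differences of the members, and the spread set was the same for every gene. Recovery of differences as small as those of the members was thus not tested. Although the rule for the members uses no measured values, the members and lists were chosen with earlier results of these data known. Values per library are given for members called in a genotype test or with the 3 smallest p in one, the highest RPKM of each role, and a fixed set of regulators and enzymes; other genes named were called in a genotype test or were chosen after their values were seen. Of 52 further pathway genes listed, 51 matched. Alternatives were the larger strand column, RLE scaling, DESeq2 1.42.0, other filters, non-robust fitting, 1 fit on all libraries, the library series, and leaving out each library; the contrast between contexts in controls alone or knockouts alone was added after seeing the data.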

Additional observations from a re-analysis of the deposited data

How the results depend on the processing

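The 48 log2 fold changes followed were a chosen subset of members and comparisons, and all kept their direction in every setting run. Among the differences between contexts not followed, Dhcr7 (-0.12 in controls, 0.06 in knockouts) and Srebf2 (-0.01 and 0.14) changed sign. The number of members called at P0, 1 by the main analysis, was 0 with the larger strand column, RLE scaling, non-robust fitting, a minimum of 10 counts per library and 1 fit on all 12 libraries. It was 2 at an adjusted p under 0.1, with DESeq2 and with the library series as a term, 3 without a filter on low counts and 9 in the 4 libraries of the first series. Calls over all 16176 genes tested were 147 in the main analysis, 462 at an adjusted p under 0.1, 382 with DESeq2 and 465 with the series term. They were 625 of 31406 genes without a filter and 2107 of 16271 in the first series. In the settings named with 0 members, 50 to 284 genes were called in all. Leaving out 1 library gave 0 to 5 members at P0. The 5 came without knockout replicate 3 (Acaca, Nsdhl, Hmgcs1 and Pmvk lower, Scd1 higher), where 775 of 16528 genes were called in all. Without wild-type replicate 3, 1 member and 249 of 16536 genes were called. The leave-one-out fits with 0 members called only 1 to 15 genes in all. At P14 the count stayed at 0 in the other settings and ranged from 0 to 4 when 1 library was left out, with 4 without control replicate 3. For the interaction it was 1 (Acaca) at an adjusted p under 0.1, with DESeq2, without a filter and with a minimum of 10 counts per library. All genes called in these settings were 563, 531, 646 and 347, against 326 in the main analysis. When 1 library was left out the count of members was 0 to 1, with 125 to 905 genes called in all. Without P0 knockout replicate 3 the member called was not Acaca (edgeR adjusted p 0.0885 for Acaca), and 590 genes were called in all. Between contexts it lay between 20 and 24 throughout. No paired analysis was possible because replicate numbers follow accession order and pair no mice. With 3 mice a group, differences of the size of the SE given were not detectable, and the low counts of Fdps limit its values. The cause of these shifts was not tested.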

Other observations

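The summed CPM of the sterol genes differed between the P14 knockout libraries. The early sterol sum was 681, 733 and 843 CPM in knockout replicates 1, 2 and 3, and 772, 777 and 715 in the controls. The late sterol sum was 649.6, 686 and 740.6 in the knockouts and 734, 716 and 681 in the controls. Hmgcs1 made up 504 of the 843 CPM in knockout replicate 3. Knockout replicate 3 was the highest library of the P14 groups and replicate 1 the lowest in both sums. Single genes did not all follow, and Lss was lowest in replicate 3 of the knockouts (60.8, 65.0 and 59.8 CPM). The fatty acid sum was 2522, 2734 and 2847 CPM in the same knockouts. At P0 the library with the lowest total over the 31 genes was knockout replicate 2, at 4213 CPM, and it was the lowest P0 library in the early sterol sum (961 CPM), the late sterol sum (717 CPM) and the sum of the regulators (469 CPM).

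Some listed genes were too low to test. Idi2 had at most 2 counts and Ch25h at most 11 counts in any library. Mlxipl was tested at P14 and not at P0.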
